A study of Mus musculus with 2 samples.

Results

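Among the 2139 cells of the series, 182 were macrophages with more transcripts of the microglial genes P2ry12, Tmem119, Rgs1 and Lair1 than of the resident-macrophage genes Mrc1, Lyve1, Msr1 and F13a1. They were found in 2 steps. First, a cell had to hold at least 500 CPM of C1qa, C1qb and C1qc together, the genes of complement component C1q, which macrophages express. CPM is the number of unique molecular identifiers (UMIs, 1 for each transcript molecule captured) of a gene per 1000000 UMIs of the same cell or sum of cells. This step kept 666 cells. Second, the summed UMIs of the 4 microglial genes had to exceed those of the 4 resident-macrophage genes, which held in 182 of the 666 C1q cells (27.3%), or 8.51% of all cells. These 182 are called microglia-like cells below, and the remaining 484 C1q cells are called the other C1q cells.

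The cells were CD31+CD44+ and 7-AAD-negative, and came from the caudal parts of C57BL/6 embryos at E10.0, which hold the aorta-gonad-mesonephros region. The cKO embryos were Vec-Cre;Nupr1fl/fl, in which Cre is driven by the Cdh5 (VE-cadherin) promoter and so deletes the stress-response gene Nupr1 from the endothelial stage onwards. The littermate controls were Nupr1fl/fl or Nupr1fl/+ embryos, which share 1 label, so that the embryos of both groups carried at least 1 floxed allele. Control and cKO cells (labelled WT and KO by hash oligo) were loaded together into 1 droplet library per replicate, with 2 replicates. Each combination of genotype and replicate is called a pool, and values of the 4 pools are given in the order control replicate 1, cKO replicate 1, control replicate 2 and cKO replicate 2. A pool may hold several embryos, which the labels do not separate.

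Microglia are the resident macrophages of the brain and descend from progenitors of the yolk sac. P2ry12 is a receptor for ADP by which microglia sense injured neighbours, Tmem119 is a membrane protein used to tell microglia from other macrophages of the adult brain, and TGF-beta signalling maintains this set of genes there. Other embryonic macrophages carry scavenger and endocytic receptors, such as the mannose receptor Mrc1 and the hyaluronan receptor Lyve1. Since these cells came from the caudal part of the embryo and not from dissected brain, microglia-like describes their transcripts only.

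The numbers of microglia-like cells were 6, 6, 97 and 73 in the 4 pools, beside 29, 47, 205 and 203 other C1q cells. Most of what follows therefore rests on replicate 2, and the sums of replicate 1 hold 342037 and 342244 UMIs against 5043617 and 4477564 in replicate 2. A gene without a UMI could lie at up to 8.77 CPM in either sum of replicate 1 and at up to 0.595 or 0.670 CPM in those of replicate 2, taking 3 UMIs as the limit and counting error alone. The microglia-like cells had a median of 53250.5 UMIs and 5813 genes, and the other C1q cells 58613.5 UMIs and 6081.5 genes. The median share of mitochondrial UMIs was 1.24% and 1.31%. No barcode was shared between the 2 libraries.

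Cells lay on both sides close to the limits of the rule. The microglia-like cells held between 2 and 327 UMIs of the 4 microglial genes (median 32) and between 0 and 103 UMIs of the 4 resident-macrophage genes (median 1). The other C1q cells held 0 to 141 UMIs (median 3) of the first genes and 0 to 512 (median 41) of the second. The excess was a single UMI in 6 microglia-like cells, while 8 other C1q cells were level and 7 fell short by 1 UMI. In 22 microglia-like cells the microglial UMIs were less than 2 times those of the other side, and in 43 other C1q cells the reverse held. In 65 of the 182 cells, between 50 and 90% of the rule's UMIs were microglial, and 117 cells lay above 90%. On the C1q axis, the lowest microglia-like cell stood at 545 CPM and the highest cell below the threshold at 496 CPM. Of 46 cells between 100 and 500 CPM, which were not taken as members, 28 had more microglial than resident-macrophage UMIs.

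**Figure D1:**
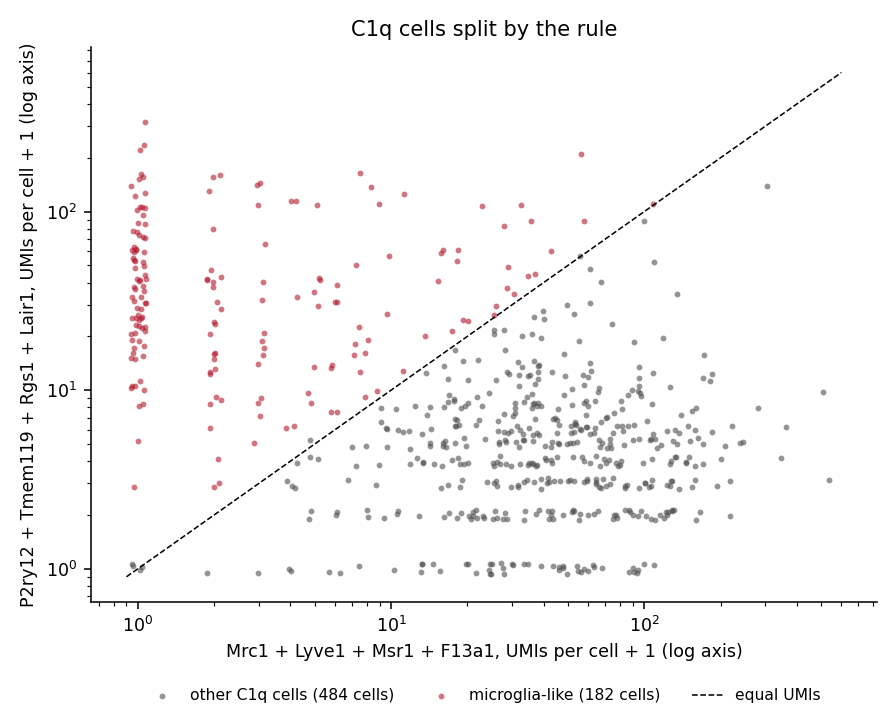
UMIs of the 4 resident-macrophage genes (horizontal axis) against UMIs of the 4 microglial genes (vertical axis) in each of the 666 C1q cells, on logarithmic axes of UMIs plus 1, with 1 slightly jittered point per cell and colour for the kind of cell. The 182 microglia-like cells lie above the line of equal UMIs and the 484 other C1q cells on or below it; 79 microglia-like cells held no UMI of the 4 resident-macrophage genes.

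The genes of the rule are described here without a test, since they chose the cells. P2ry12 (chromosome 3, 59216272 to 59262871, minus strand, GRCm38) stood at 76.0, 93.5, 108 and 103 CPM in the microglia-like cells and at 31.9, 20.7, 34.3 and 33.0 CPM in the other C1q cells. Tmem119 (chromosome 5, 113793729 to 113800516, minus strand) stood at 102, 84.7, 46.6 and 78.6 CPM against 5.86, 3.5, 4.05 and 3.65 CPM. Both genes were thus measured in the other C1q cells as well, and the gap between the kinds of cell was wider for Tmem119 than for P2ry12. Rgs1, a regulator of G-protein signalling that acts on chemokine receptors, stood at 830, 587, 696 and 485 CPM against 30.6, 25.9, 23.1 and 46.2 CPM. Lair1, an inhibitory receptor for collagen and C1q, stood at 193, 129, 110 and 92.0 CPM against 14.3, 13, 17.7 and 19.3 CPM. In all of these genes the 4 pools of the microglia-like cells lay above the 4 of the other C1q cells.

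On the other side of the rule, Mrc1 stood at 93.6, 2.92, 60.5 and 58.3 CPM in the microglia-like cells and at 704, 593, 465 and 404 CPM in the other C1q cells. Lyve1 had no UMI in either pool of replicate 1 of the microglia-like cells and stood at 0.79 and 0.45 CPM in replicate 2, against 124, 97.7, 220 and 218 CPM. F13a1, which encodes the A chain of coagulation factor XIII, stood at 11.7, 23.4, 30.7 and 23.7 CPM against 193, 266, 233 and 252 CPM. Mrc1 was therefore still detected in 82 of the 182 microglia-like cells, while Lyve1 was detected in 4. C1qb, a gene of the first step, overlapped between the kinds of cell but was lower in the microglia-like cells of each pool. It stood at 1579, 1797, 2256 and 2305 CPM in the microglia-like cells and 1849, 1841, 2753 and 2628 CPM in the other C1q cells.

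Free RNA in droplets can give a UMI to a cell that does not express a gene, and so detection was set beside 746 endothelial cells of the same libraries (Cdh5-rich, C1q-poor, median 30667 UMIs). P2ry12 was detected in 84.6% of the microglia-like cells, 74.4% of the other C1q cells and 0.670% of the endothelial cells. After every cell was thinned to 6000 UMIs, the shares were 41.4%, 18.4% and 0.275%. Tmem119 behaved differently, with 58.8% of the microglia-like cells, 13.6% of the other C1q cells and 23.6% of the endothelial cells, or 22.1%, 1.67% and 5.22% after thinning. In a second reference, 202 megakaryocyte-like cells (rich in megakaryocyte genes, C1q-poor, median 83235.5 UMIs), P2ry12 was detected in 4.95% and Tmem119 in 0.495%. The Tmem119 share of the other C1q cells was thus below that of the endothelial cells and above that of the megakaryocyte-like cells, whereas that of the microglia-like cells was above both. Lair1 was detected in 90.1% of the microglia-like cells, 45.9% of the other C1q cells, 0.536% of the endothelial cells and 0.495% of the megakaryocyte-like cells. Rgs1 was detected in 85.2%, 27.5%, 2.82% and 52.5% of them, or 70.2%, 8.58%, 1.10% and 19.8% after thinning, so that it was more widely detected in the megakaryocyte-like than in the other C1q cells.

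The 200 bases before the RefSeq transcription start (GRCm38.p6) are shown for P2ry12 and Lair1, which are on the microglial side of the rule, and for Mrc1, the most widely detected gene of the other side. Capitals mark GAGGAA, 1 form of the letters bound by the myeloid factor PU.1 (Spi1), or its reverse complement TTCCTC. Shorter or other forms were not marked or counted.
P2ry12 promoter, chr3:59262986-59263185, minus strand: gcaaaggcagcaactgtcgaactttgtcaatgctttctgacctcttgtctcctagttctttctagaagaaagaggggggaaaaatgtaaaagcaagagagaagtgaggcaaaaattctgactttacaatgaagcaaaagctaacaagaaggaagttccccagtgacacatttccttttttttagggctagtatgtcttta
Lair1 promoter, chr7:4063205-4063404, minus strand: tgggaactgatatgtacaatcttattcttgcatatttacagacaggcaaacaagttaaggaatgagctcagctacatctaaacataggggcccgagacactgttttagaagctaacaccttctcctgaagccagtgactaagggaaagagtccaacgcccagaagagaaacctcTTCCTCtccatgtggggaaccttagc
Mrc1 promoter, chr2:14229214-14229413, plus strand: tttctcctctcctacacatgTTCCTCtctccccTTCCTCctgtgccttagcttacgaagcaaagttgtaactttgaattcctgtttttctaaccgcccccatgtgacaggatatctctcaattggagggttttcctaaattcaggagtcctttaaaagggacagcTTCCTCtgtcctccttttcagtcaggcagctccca
GAGGAA occurred on either strand 0 times in the P2ry12 window, 1 time in that of Lair1 (its first base 26 bases before the start) and 3 times in that of Mrc1. The letters are common, being present in 19% of 32851 RefSeq promoter windows of this length. TGANTCA, the letters bound by AP-1, are present in 5.48% of the windows and in none of the 3 shown, and no match overlapped another. Of 14 genes looked for, 9 had a window in the RefSeq table. Spi1 itself stood at 415, 418, 505 and 502 CPM in the microglia-like cells and 351, 346, 510 and 513 CPM in the other C1q cells, with overlapping pools.

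The 182 cells were not alike. Rgs1 supplied 68.8% of their UMIs of the 4 microglial genes, Lair1 12%, P2ry12 11.9% and Tmem119 7.27%. Without Rgs1 in the rule, 143 of the 182 cells still met it and 39 did not. P2ry12 and Tmem119 were both detected in 98 of the cells, and neither in 19. The 39 cells that needed Rgs1 held 2.07 CPM of Olfml3, which encodes a secreted olfactomedin-like protein, against 66.4 CPM in the 143 cells and 4.99 CPM in the other C1q cells. They held 5.86 CPM of Sparc, a matricellular glycoprotein, against 217 CPM in the 143 cells and 6.98 CPM in the other C1q cells. Other genes outside the rule went the other way. Gas6, the gene of a growth-arrest ligand, stood at 27.6 CPM in the 39 cells, 28.3 CPM in the 143 and 126 CPM in the other C1q cells, and Plac8 at 408, 532 and 151 CPM. The 39 cells thus lay near the other C1q cells in Olfml3 and Sparc and nearer to the 143 in Gas6 and Plac8. Among the rule's own genes, P2ry12 stood at 18.3 CPM in the 39 cells, 138 CPM in the 143 and 32.3 CPM in the other C1q cells. Tmem119 stood at 3.45, 87.7 and 3.91 CPM in that order. In both genes the 39 cells were no higher than the other C1q cells. The division itself favours this, since it uses these genes. This division was chosen after the values were seen and has no test. The 39 were also deeper, with a median of 77051 UMIs against 48473.

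Within the microglia-like cells, P2ry12 varied with Sparc, Tmem119 and Lair1, with Spearman correlations of 0.68, 0.49 and 0.51 over the 182 cells. Sparc and F11r, which encodes the junctional adhesion molecule JAM-A, had a correlation of 0.75. Rgs1 varied little with them, at 0.09 with P2ry12 and 0.20 with Sparc. It varied more with the chemokine genes Ccl3 (0.46) and Ccl4 (0.39) and with the immediate-early gene Egr1 (0.37). These correlations describe cells that share 2 libraries and differ in depth, and were not tested. The cells were also chosen by the summed UMIs of P2ry12, Tmem119, Lair1 and Rgs1. A cell low in the other genes of this sum could enter by its Rgs1 UMIs. This selection can lower the correlation of Rgs1 with these genes and with genes that vary with them, such as Sparc. The low values of Rgs1 therefore cannot show that it varies apart from them. The C1q cells were also grouped by the share of the rule's UMIs that came from the microglial genes, without 4 cells that had no UMI of either side. Sparc stood at 6.16 CPM where that share was 0 (50 cells) and at 6.93, 7.12, 26.2 and 184 CPM in the groups between. It reached 304 CPM where the share was 100% (79 cells). Cx3cr1, the fractalkine receptor, ranged only from 436 to 734 CPM over the same groups.

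**Figure D2:**
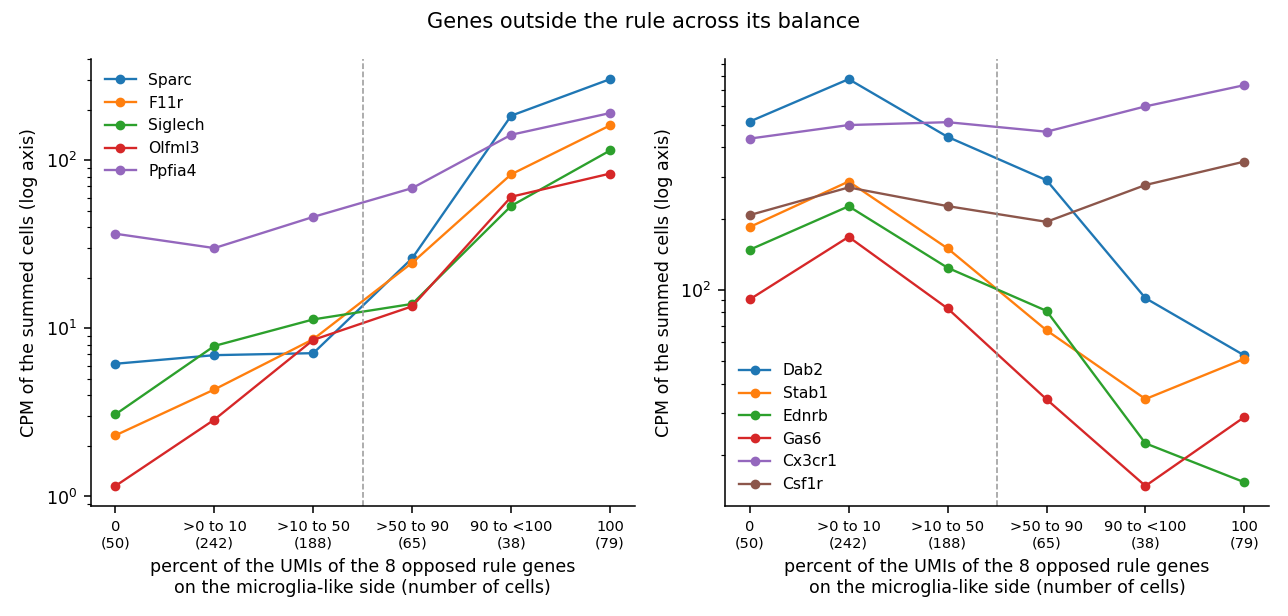
Level in CPM (vertical axis, logarithmic) of 5 genes that were higher (left) and of 4 lower and 2 shared genes (right) in C1q cells grouped by the share of the rule's UMIs that came from the 4 microglial genes (horizontal axis), with 1 point per gene and group of summed cells and a dashed line at the limit of the rule. Sparc was 304 CPM in the group at 100%, Dab2 was 52.6 CPM there and 779 CPM in the group with over 0 and up to 10%, and Cx3cr1 stayed between 436 and 734 CPM.

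The microglia-like and the other C1q cells were compared on UMI counts summed per pool, 4 sums against 4, with the pool as a block. Of 9465 genes tested outside the rule, 726 passed an adjusted p of 0.05 (7.67%) in edgeR's quasi-likelihood test with Benjamini-Hochberg adjustment, 439 of them higher (4.64%) and 287 lower (3.03%) in the microglia-like cells. Every adjusted p of the comparison comes from this test. The counts of the gene lists below are to be read beside these shares of 4.64% and 3.03%. Because the 2 kinds of cell were divided by transcripts of the same cells, an adjusted p here says only that a gene outside the rule differed over the 4 pools. The calls differed by setting, with 333 genes when cKO replicate 2 was left out, 389 without control replicate 2, and 318 without the block.

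Both kinds of cell carried the general macrophage genes. Of 19 macrophage identity genes, 8 were higher, 2 were lower and 9 did not pass, with a median log2 difference of 0.27 against −0.03 over all genes. Csf1r, the receptor for colony-stimulating factor 1, stood at 325, 400, 255 and 263 CPM in the microglia-like cells and 296, 247, 269 and 222 CPM in the other C1q cells, which overlapped (log2 difference 0.26, adjusted p = 0.273). Cx3cr1 stood at 710, 1148, 529 and 602 CPM against 844, 524, 470 and 475 CPM and overlapped too (0.38, adjusted p = 0.422). Ctss, the gene of cathepsin S, was higher at 748, 985, 832 and 807 CPM against 212, 167, 355 and 333 CPM, without overlap (1.72 ± 0.25 SE, adjusted p = 0.0136). The 2 genes that fell were the lysosomal glycoprotein gene Cd68 (−0.61) and the lysozyme gene Lyz2 (−0.78).

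Beyond the genes of the rule, a wider set of microglial genes was higher in the microglia-like cells. Of 40 such genes, 36 passed the filter on low counts, 21 were higher, 1 was lower, and the median log2 difference was 0.99. For 20 of the 40, all 4 microglia-like pools lay above all 4 others, which held for 4.56% of all genes tested. The list was drawn up with results of these data known, so its count is a description. Sparc stood at 336, 32.1, 175 and 133 CPM in the microglia-like cells and 4.56, 6.30, 8.86 and 5.74 CPM in the other C1q cells. The pools did not overlap, although the cKO pool of replicate 1 was far below the other 3 (log2 difference 4.46 ± 0.39, adjusted p = 0.00143). Olfml3 stood at 46.8, 46.8, 58.3 and 36.9 CPM against 5.21, 0.35, 9.37 and 2.09 CPM (3.43 ± 0.39, adjusted p = 0.00152).

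Siglech, a sialic-acid-binding lectin gene, was higher in each pool but overlapped across pools, because the microglia-like cells of cKO replicate 1 held 5.84 CPM (2.65 ± 0.18, adjusted p = 5.03e-07). Ppfia4, a liprin gene named as a marker of these cells from earlier results of these data, stood at 184, 164, 120 and 128 CPM against 24.7, 16.8, 41.9 and 39.1 CPM (2.13 ± 0.31). Because the same data named it, its difference is a description, although it is counted among the 21 higher genes. The transcription factor gene Sall3 was higher by 2.37 ± 0.24. Sall1, the related factor on which mature microglia depend, was below the filter, with 20 UMIs in 6.59% of the microglia-like cells (1.96 CPM). It had no UMI in the 484 other C1q cells, a count that limits cells with a UMI to 0.620% and the summed level to 0.101 CPM, and it was detected in 5.23% of the endothelial cells at 1.46 CPM. Fcrls, an Fc receptor-like gene of microglia, went the other way, at 81.9, 61.4, 231 and 264 CPM against 305, 147, 455 and 398 CPM (−1.02 ± 0.16, adjusted p = 0.00121). P2ry13 (1.11, adjusted p = 0.189), Selplg (2.13, adjusted p = 0.0686) and Trem2 (0.27) did not pass.

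**Figure D3:**
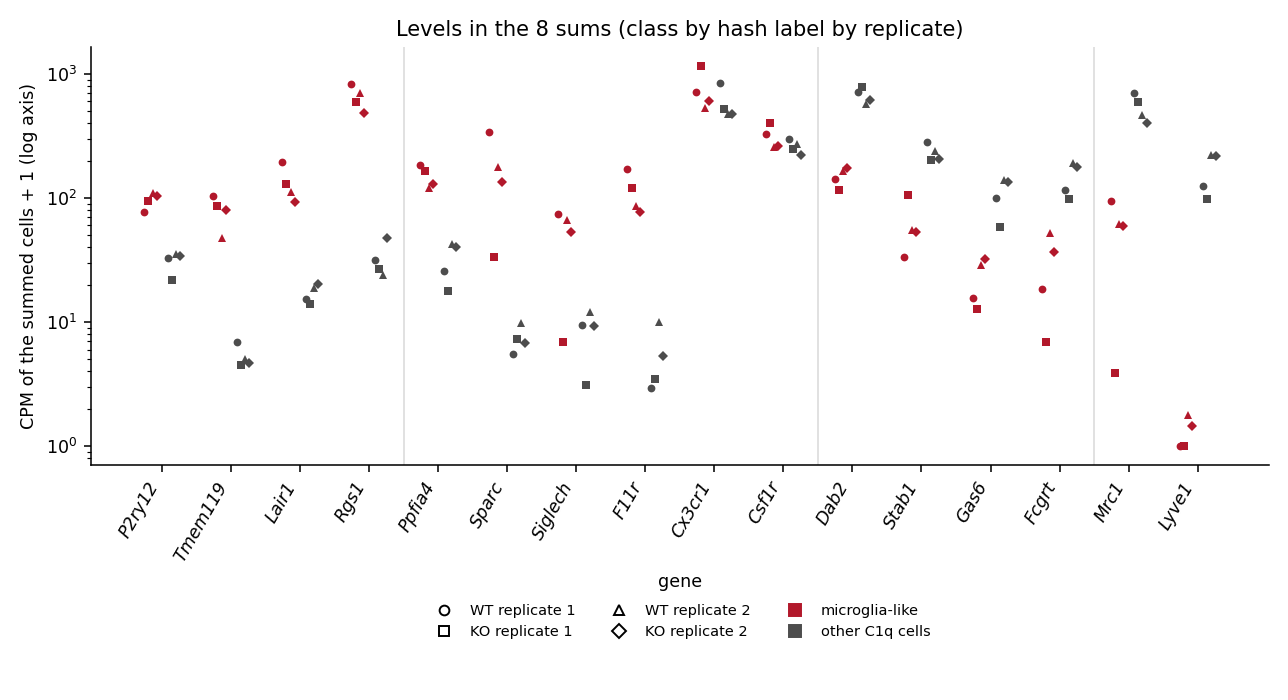
Level in CPM (logarithmic axis) of genes in the 4 microglia-like and the 4 other C1q pools, drawn as CPM plus 1, with 1 point per pool and gene, colour for the kind of cell, and symbol for the pool. F11r lay between 75.7 and 170 CPM in the microglia-like pools and between 1.95 and 8.95 CPM in the others, while Csf1r and Cx3cr1 overlapped.

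Genes with the greatest differences belonged to other roles as well. Il7r, the receptor subunit for interleukin-7, had 13, 36, 54 and 70 UMIs in the microglia-like pools and 1, 0, 1 and 3 in the other C1q pools (log2 difference 6.91 ± 0.40, adjusted p = 1.92e-07). Runx3, a transcription factor gene of blood cells, had 21, 6, 60 and 48 UMIs against 1, 0, 0 and 6. Bhlhe40 (4.32 ± 0.39) and Bhlhe41 (2.45 ± 0.21), which encode related transcriptional repressors, were both higher without overlap, as were Plxdc2 (4.07 ± 0.33), the protease inhibitor gene Serpine2 (3.91 ± 0.23) and F11r (4.12 ± 0.40, adjusted p = 0.00265). Of 23 myeloid transcription factor genes tested, 10 were higher and none was lower, against 4.64% and 3.03% of all genes tested. The median was 0.39, and Irf8 (0.90), Irf5 (0.55), Runx1 (0.50) and Cebpa (0.98) were among the 10. Maf, at 81.9, 196, 201 and 216 CPM against 477, 385, 359 and 307 CPM, did not overlap but did not pass (−1.02 ± 0.29, adjusted p = 0.117).

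The resident-macrophage and scavenger genes outside the rule were mostly lower. Of 32 genes, 22 passed the filter, 14 were lower and none was higher, with a median log2 difference of −1.78. For 11 of the 32, all 4 microglia-like pools lay below all 4 others, against 5.96% of all genes tested. Dab2, an adaptor of clathrin-mediated uptake, stood at 140, 114, 163 and 172 CPM against 712, 786, 575 and 610 CPM (−2.07 ± 0.14, adjusted p = 1.32e-06). Stab1, the scavenger receptor stabilin-1, stood at 32.2, 105, 54.1 and 52.5 CPM against 279, 201, 239 and 205 CPM (−1.95 ± 0.23). The phosphatidylserine receptor gene Timd4 (−3.94 ± 0.43), the ficolin gene Fcna (−3.84 ± 0.25) and the folate receptor gene Folr2 (−2.94 ± 0.30) had the most negative values of the list, and each was at most 5.85 CPM in the microglia-like pools. The iron exporter gene Slc40a1 (−2.61 ± 0.22), Gas6 (−2.24 ± 0.15) and the neonatal Fc receptor gene Fcgrt (−2.23 ± 0.18) fell as well. Apoe, at 1088, 5210, 4195 and 3705 CPM against 2031, 1807, 4690 and 4590 CPM, was neither (0.06, adjusted p = 0.98).

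**Figure D4:**
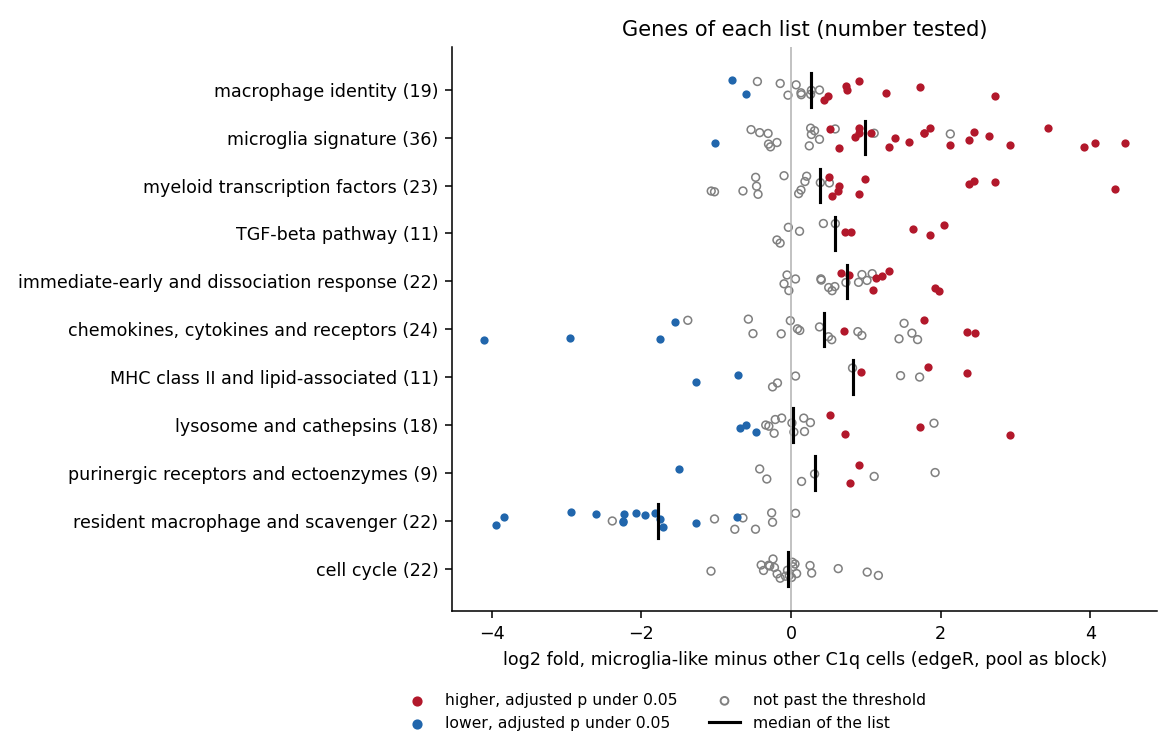
Log2 difference of the microglia-like minus the other C1q cells (horizontal axis) for each tested gene of the lists (vertical axis), with 1 point per gene, filled where the adjusted p was under 0.05, and a bar at each list's median. The median was 0.99 for the microglia signature, −1.78 for the resident macrophage and scavenger list, and −0.04 for the cell cycle list.

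Genes of the TGF-beta pathway were measured from ligand to target. The ligand gene Tgfb1 stood at 187, 140, 126 and 117 CPM against 148, 142, 144 and 136 CPM, with overlap (log2 difference −0.04, adjusted p = 0.933). The type I receptor gene Tgfbr1 stood at 132, 184, 73.2 and 81.5 CPM against 48.8, 26.3, 26.2 and 23.1 CPM, without overlap (1.85 ± 0.19, adjusted p = 5.6e-05), whereas the type II receptor gene Tgfbr2 did not pass (0.43, adjusted p = 0.106). Smad7, a feedback inhibitor that the pathway induces, stood at 170, 67.2, 102 and 66.6 CPM against 30.6, 15.1, 20.7 and 24.2 CPM (2.05 ± 0.18, adjusted p = 7.15e-06). The repressor genes Skil (1.63 ± 0.15) and Ski (0.72 ± 0.16) and the integrin gene Itgav, whose product takes part in activating the ligand (0.80 ± 0.22), were higher too. Altogether 5 of the 11 genes tested were higher and none was lower (median 0.59), against 4.64% and 3.03% of all genes tested. Smad2, Smad3, Smad4 and Nrros, whose product tethers latent TGF-beta 1, did not pass. Among 9 purinergic genes other than P2ry12, the ATP-gated channel gene P2rx1 (0.79 ± 0.23, adjusted p = 0.0461) and Gpr34 (0.91 ± 0.20) were higher, the adenosine receptor gene Adora2b (−1.50 ± 0.41) was lower, and 6 did not pass.

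Chemokine genes were divided. Ccl7 had 0, 0, 13 and 6 UMIs in the microglia-like pools and 11, 42, 319 and 571 in the others (log2 difference −4.10 ± 0.32), and Ccl12 (−2.96 ± 0.24), Ccl24 (−1.75 ± 0.25) and Ccl9 (−1.55 ± 0.23) were lower without overlap too. Csf1 (2.36 ± 0.33), which encodes a macrophage growth factor, and the receptor genes Cxcr4 (2.46 ± 0.32) and Il10ra (1.78 ± 0.20) were among those higher. Ccl3 stood at 2149, 1625, 2491 and 1642 CPM against 278, 576, 1150 and 1119 CPM, without overlap, yet did not pass (1.51 ± 0.52, adjusted p = 0.281). Ccl4 was alike in this (1.69 ± 0.55, adjusted p = 0.262). In all, 4 of 24 genes tested were higher and 4 were lower (median 0.44), against 4.64% and 3.03% of all genes tested.

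Immediate-early genes, which cell dissociation also induces, were higher in part. Of 22 tested, 8 were higher and none was lower, with a median of 0.75, against 4.64% and 3.03% of all genes tested. For 9 of the 22, all microglia-like pools lay above all others, which held for 4.56% of all genes tested. Egr1 stood at 401, 324, 144 and 109 CPM against 159, 52.5, 36.5 and 32.7 CPM, so that it was higher within each of the 4 pools while the 2 ranges overlapped (1.93 ± 0.17). Zfp36 (1.31 ± 0.20), Atf3 (1.13 ± 0.20), Junb (1.21 ± 0.14) and Nr4a1 (1.97 ± 0.38) were called, while Fos was not (0.55, adjusted p = 0.417). Since Rgs1 varied with Egr1 across cells, the list was counted again with the rule formed without Rgs1, and 8 of 21 genes were then higher, with a median of 0.61, but Junb, Egr1 and Ier2 were no longer called. Without replicate 1, 5 of 22 were higher. The part of dissociation in these values was not tested.

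Genes of lysosomes and of antigen presentation did not move one way. Of 18 lysosomal genes, 4 were higher (among them Ctss, the cathepsin D gene Ctsd at 0.53 and Psap at 0.72) and 3 were lower (the cathepsin B gene Ctsb at −0.69, Lamp1 at −0.46 and Cd68), with a median of 0.02. Over all genes tested, 4.64% were higher and 3.03% were lower. Of 11 MHC class II and lipid-associated genes tested, the invariant chain gene Cd74 (0.94), the tetraspanin gene Cd9 (1.84 ± 0.12) and the receptor gene Axl (2.35 ± 0.31) were higher, and Lpl (−0.71) and Igf1 (−1.27) were lower. None of 22 cell cycle genes passed in either direction (median −0.04), and Mki67 differed by −0.19 (adjusted p = 0.697).

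Markers of other cell types were counted in the same sums. The 13 endothelial genes together made up 40.9 to 88.9 CPM in the microglia-like pools and 66.4 to 115 CPM in the other C1q pools, against 7883 CPM in the endothelial cells. Cdh5 stood at 2.92, 8.77, 0.99 and 0.45 CPM in the microglia-like pools. This bears on Sparc and F11r, since both were widely detected in endothelial cells (98.8% and 96.1%), and Sparc stood there at 1769 CPM. The stem cell and endothelial gene Cd34 was higher in the microglia-like cells (2.35, adjusted p = 2.16e-05) and was detected in 85.2% of them, 31.4% of the other C1q cells and 98.5% of the endothelial cells. Pecam1, which encodes CD31 of the sort, was higher (1.04, adjusted p = 0.00642), and Cd44 did not pass (−0.12, adjusted p = 0.728). Plac8 was the only one of 4 granulocyte-monocyte genes to pass (1.86, adjusted p = 4.25e-07). Megakaryocyte genes summed to 182 CPM in control replicate 2 and to at most 15.4 CPM in the other 3 pools. In control replicate 2, 835 of their 918 UMIs were in 1 cell of 115995 UMIs, which held all 11 genes of the list, and without it the sum was 16.8 CPM. Mesenchymal and neural genes summed to at most 2.92 CPM, and the 4 adult globin genes had no UMI. No microglia-like cell had 1% of its UMIs in the endothelial, megakaryocyte and erythroid lists together, the highest being 0.751%. Only 346 of the 746 endothelial and 39 of the 202 megakaryocyte-like cells reached 1% themselves, so a mixed droplet could pass this limit.

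The share of microglia-like cells differed more between replicates than between genotypes. They were 17.1%, 11.3%, 32.1% and 26.4% of the C1q cells of the 4 pools, with exact binomial 95% intervals of 6.56 to 33.6%, 4.27 to 23.0%, 26.9 to 37.7% and 21.3 to 32.1%, which cover counting error only. The cKO share was 18.9 ± 10.7% and the control share 24.6 ± 10.6% (SD, n = 2 pools each). The difference was −5.75 percentage points (exact permutation test, two-sided, p = 0.667), where 2 pools against 2 cannot give less than 0.333. Within replicates it was −5.82 and −5.67 points. When the rule was applied to cells thinned to 6000 UMIs, the difference was −10.8 points (−15.3 and −6.34 within replicates, exact permutation p = 0.333). Of all cells, the microglia-like cells were 1.80%, 1.74%, 13% and 10.2%, a difference of −1.39 points (exact permutation p = 0.667).

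**Figure D5:**
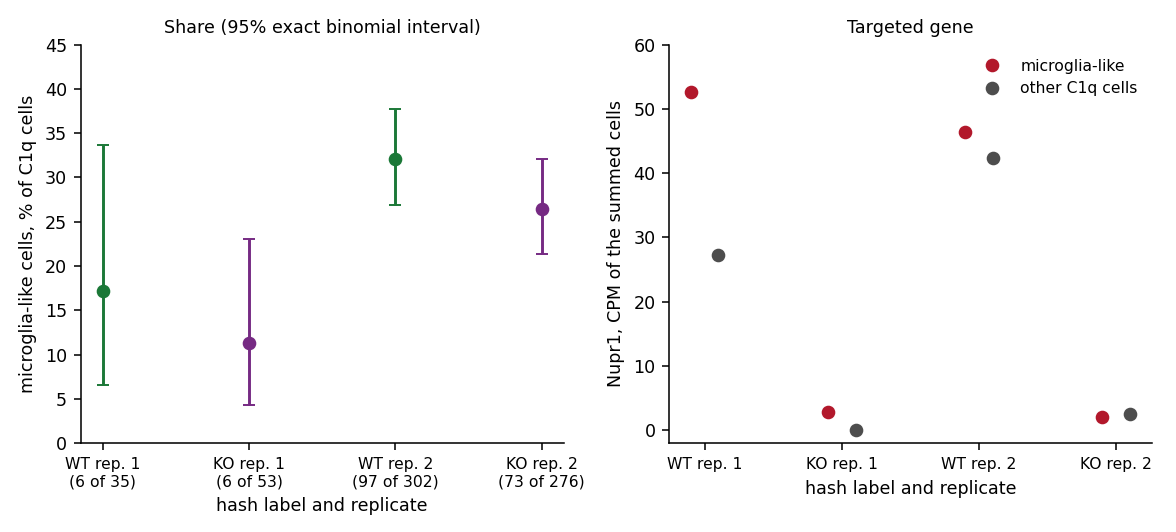
Microglia-like cells as a percentage of the C1q cells in each of the 4 pools (1 point per pool, bars for the exact binomial 95% interval), beside the level of Nupr1 in CPM in the microglia-like and the other C1q cells of each pool. The shares were 17.1% and 11.3% in replicate 1 and 32.1% and 26.4% in replicate 2, and Nupr1 was at or below 2.92 CPM in the cKO microglia-like pools.

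Nupr1 (chromosome 7, 126623249 to 126630861, minus strand) was lower in the cKO microglia-like cells. It had 18, 1, 234 and 9 UMIs, or 52.6, 2.92, 46.4 and 2.01 CPM, and was detected in 5 of 6, 1 of 6, 67 of 97 and 3 of 73 cells. The controls lay above the cKO in both replicates, and the log2 difference was −4.50 ± 0.65 (edgeR, adjusted p = 0.00281). The level in the cKO was 0.0555 times that of the control in replicate 1 (exact 95% interval from the UMI counts 0.00133 to 0.352) and 0.0433 times in replicate 2 (0.0196 to 0.0837), and 6 of the 9 UMIs of cKO replicate 2 were in 1 cell. This checks the labels. Without cKO replicate 2 the value was −4.10 and the adjusted p 0.075, and without control replicate 2 they were −4.54 and 0.594.

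Nupr1 was the only gene called between cKO and control microglia-like cells among 8885 tested (0.0113%), with 64 genes at an unadjusted p under 0.05 and 1 call by DESeq2. No gene was higher (0%) in this test, which had no block. On simulated data it recovered only 2% of 2-fold and 44% of 4-fold changes between genotypes, so few calls do not mean few differences. With the replicate as a block, which the shared libraries justify, 4 genes passed. They were Nupr1 (−4.49), Cxcl10 (−2.07), the small heat-shock protein gene Hspb1 (−1.31) and Hebp1, a heme-binding protein gene that stood at 49.7, 161, 46.0 and 188 CPM and so was higher in the cKO of both replicates (1.88). None of the microglial, scavenger, TGF-beta or immediate-early genes was called between genotypes in the test without the block, and the median log2 difference of the microglia signature was 0.04. P2ry12 and Tmem119, given above, overlapped between genotypes, while the Rgs1 levels of the cKO lay below those of the controls in both replicates. These genes chose the cells. In the test without the block, the 4 microglial genes of the rule were among the 8885 genes, and none was called. Sex-linked transcripts moved with genotype as well, Xist standing at 626, 52.6, 337 and 186 CPM. Y-chromosome genes were detected in the microglia-like cells of cKO replicate 1 alone (5 of 6 cells). Sex and genotype thus cannot be told apart in replicate 1. In replicate 2 no cell of either pool had a UMI of the Y-chromosome genes counted. Xist was detected there in 95 of 97 control and 42 of 73 cKO microglia-like cells. Its level was lower in the cKO of both replicates, so a gene that varies with Xist cannot be told apart from one that varies with genotype.

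Whether the cKO effect differed between the microglia-like and the other C1q cells was tested as an interaction. Of 10158 genes, 10 passed (0.0984%), all with a more negative effect in the microglia-like cells. Cxcl10, an interferon-induced chemokine gene, stood at 84.8, 29.2, 56.1 and 11.8 CPM in the microglia-like cells and at 34.5, 71.1, 17 and 45.4 CPM in the other C1q cells, so that it was lower in the cKO of the first and higher in that of the second in both replicates (interaction −3.37 ± 0.41, adjusted p = 8.53e-13). Single cells weighed on this, as 166 of the 283 UMIs of control replicate 2 and 16 of the 29 of control replicate 1 were each in 1 cell. Ppbp, a platelet chemokine gene, had 240 of its 258 UMIs of control replicate 2 in the 1 cell rich in megakaryocyte genes. The heat-shock genes Hspa1a (−0.84 ± 0.18) and Hspb1 (−1.69 ± 0.34) were among the 10. The count was 5 to 107 when a pool was left out (107 without cKO replicate 2 and 15 without control replicate 2) and 0 without the replicate block, with 39 at an unadjusted p under 0.05.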

How the data were processed

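The deposited values are UMI counts per gene and cell. According to the submitters' processing notes and the study's methods, the authors aligned reads to mm10 with Cell Ranger 5.0.1, assigned cells to genotype by hash oligo with HTODemux in Seurat, and kept cells with over 1800 genes, over 6000 UMIs and under 5% mitochondrial UMIs. Of the microglia-like cells, 2 lay outside these limits and were kept. Doublets between genotypes had been removed by hash oligo, and no doublet caller was run here.

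Counts were summed per pool (at least 3 cells each) and tested with edgeR 4.0.16 (R 4.3.3; quasi-likelihood, TMM, filterByExpr, Benjamini-Hochberg), with DESeq2 1.42.0 as an alternative. The kinds of cell were compared with the pool as block. Genotypes were compared over 4 sums, and the interaction over 8 sums with the pool as block. Replicate numbers pair the genotypes because both were loaded into 1 library. Deviations of same-numbered sums correlated at 0.240 in the microglia-like and 0.565 in the other C1q cells. Levels are summed UMIs per 1000000. Errors of log2 differences are approximate standard errors. Each is the size of the log2 difference divided by the square root of the F statistic of edgeR's test.

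The members, the gene lists and the tests were chosen with earlier results of these data known. Genes named are the rule's genes, members of the fixed lists, and the 12 genes with the largest difference in each direction among called genes of the same direction in all 4 pools and at 20 CPM or more in the higher kind of cell, and all called genes of the other comparisons. The subsets by Rgs1 were chosen after their values were seen. The p-values between kinds of cell and of the interaction weigh the difference within a pool against its spread over the 4 pools of 2 replicates. With only 8 sums, edgeR estimates this spread partly from the other genes. A very small p-value is therefore not a measure of agreement between pools, as with Ppbp, which rested on 1 cell. The p-values between genotypes without the block weigh the difference against the spread between pools, estimated in the same way. Simulated data with known changes, run through the same steps, gave a recovery of 82% of 2-fold and 96% of 4-fold changes between kinds of cell (9473 genes), 2% and 44% between genotypes (8758 genes) and 7% and 56% for the interaction (10032 genes). Gene positions are those of GENCODE on GRCm38, matched by symbol. Detection was compared after thinning to 6000 UMIs. Python 3.11.15 with NumPy 2.4.6, pandas 2.3.3 and SciPy 1.17.1 was used. Alternatives were other C1q thresholds (250 and 1000 CPM), the rule without Rgs1, a margin of 2 times, thinned cells, the study's cell limits, other size factors, no low-count filter, other blocking, and each pool left out. Some genes are not reported here, although they are counted in the lists.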

Additional observations from a re-analysis of the deposited data

Results flagged for a closer look

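For 10 genes the difference between cKO and control was more negative in the microglia-like than in the other C1q cells in the edgeR interaction test. The value given is the difference of the 2 log2 differences. The chemokine gene Cxcl10 (−3.37, adjusted p = 8.53e-13) and the platelet chemokine gene Ppbp (−5.77, adjusted p = 3.73e-13) had the smallest p-values. Ppbp rested on 1 cell of control replicate 2, and without that cell the pool stood at 3.65 CPM in place of 51.2 CPM. The heat-shock and chaperone genes were Hspa1a (−0.84, adjusted p = 0.00507), Hspb1 (−1.69, adjusted p = 0.00507) and Dnajb1 (−1.23, adjusted p = 0.0436). The remaining genes were the cell cycle inhibitor gene Cdkn1a (−2.03, adjusted p = 0.00933), the chemerin receptor-like gene Ccrl2 (−1.87, adjusted p = 0.0117), the stefin gene Stfa1 (−2.46, adjusted p = 0.0172), Ier3 (−1.28, adjusted p = 0.0399) and Klf6 (−0.89, adjusted p = 0.0436). Single cells weighed on Stfa1 and Cdkn1a too. In the other C1q cells, 66 of the 143 Stfa1 UMIs of cKO replicate 1 and 185 of the 384 of cKO replicate 2 were each in 1 cell. Stfa1 had no UMI in either kind of cell of control replicate 1. For Cdkn1a, 181 of the 496 UMIs in the microglia-like cells of control replicate 2 were in 1 cell.

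Ccrl2 stood at 99.4, 58.4, 94.4 and 27.5 CPM in the microglia-like pools and at 10.4, 12.6, 12.5 and 16.7 CPM in the other C1q pools, with between 16 and 476 UMIs per sum. Hspb1 stood at 170, 78.9, 383 and 148 CPM against 31.2, 41.0, 187 and 225 CPM, so that it was lower in the cKO in the first and higher in the second within both replicates. All 27 UMIs of Hspb1 in cKO replicate 1 were in 1 microglia-like cell.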

How the results depend on the processing

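Between the kinds of cell, 726 genes were called. The count was 1226 with no low-count filter and 318 with no replicate block, 306 of which were among the 726. It was 333 to 982 when a pool was left out, and 1461 without replicate 1, an alternative chosen after seeing the data. The share of calls that were higher was 60.5%, and 71.1% without the block. Of 96 named genes, 55 kept their call under every alternative and none reversed. Calls of the microglia signature numbered 18 to 27, and lower calls of the scavenger list 9 to 19.

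The genotype count of 1 became 11 with no low-count filter, 4 with the replicate block, 2 with the thinned rule and 2 to 25 with a pool left out. The interaction count of 10 became 3 with the C1q threshold of 250 CPM, with the clear margin, with the rule without Rgs1 and with the thinned rule. It became 2 with DESeq2, 0 with no replicate block, 6 when a UMI of P2ry12 or Tmem119 was required (added after seeing the data) and 5 to 107 with a pool left out. Of the 10 interactions, 2 changed sign, Cdkn1a to 0.33 with the rule without Rgs1 and Ppbp, which ran from −8.86 to 1.08 with a pool left out (1.08 without control replicate 2). The share of microglia-like cells, cKO minus control, ran from −13.3 to 1.82 percentage points of the C1q cells with a pool left out (1.82 without cKO replicate 1, 1.74 without control replicate 2). It ran from −6.98 to 4.19 points of all cells (2.86 without cKO replicate 1, 4.19 without control replicate 2). Leaving out cells with 1% or more of their UMIs in endothelial, megakaryocyte and erythroid genes removed none. Many of the endothelial and megakaryocyte-like cells did not reach this limit either. The causes were not tested. With 6 microglia-like cells in each pool of replicate 1, only large genotype differences could be detected.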

Other observations

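Itgax, the gene of the integrin CD11c, fell below the filter on low counts in the comparison of the kinds of cell, yet had 24 UMIs in the microglia-like cells (2.35 CPM) and none in the other C1q cells, which allows up to 0.101 CPM. Lag3, an inhibitory receptor gene below the same filter, had 19 UMIs (1.86 CPM) in the microglia-like cells and 8 UMIs (0.27 CPM) in the other C1q cells. Cd163, Il34 and the MHC class II transactivator gene Ciita had no UMI in the microglia-like cells, which allows up to 0.294 CPM. Their levels in the other C1q cells are not given here, so the absence is not shown to be particular to the microglia-like cells.

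Cxcl2 varied between pools more than between kinds of cell, at 2.92, 555, 10.1 and 21.2 CPM in the microglia-like pools and at 233, 81.9, 12.7 and 104 CPM in the other C1q pools (log2 difference −0.57, adjusted p = 0.91 by edgeR).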
